A study of Caenorhabditis elegans with 2 samples.

Results

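The 60 genes described here are neuronal genes of Caenorhabditis elegans, taken from a list written by gene name and found in the WBcel235 (ce11) annotation, which holds 19973 nuclear protein-coding genes. All 60 names matched a gene. They were sorted by role into synaptic release (13 genes), neurotransmitter synthesis, transport and reception (15), touch sensing and cilia (13), neuropeptides (12), and axon guidance or neuronal fate (7). The series maps RNA polymerase II by chromatin immunoprecipitation and sequencing (ChIP-seq) against AMA-1, the large catalytic subunit of the enzyme. It has 1 group of 2 biological replicates: whole larvae of the L2 stage, both sexes pooled, of the wild-type strain N2, with no transgene, treatment or second genotype. No other group stands beside it, so no test between groups was made.

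Neurons pass signals by releasing vesicles of transmitter at synapses and larger dense-core vesicles filled with neuropeptides. The machinery of release is used by nearly every neuron, whereas the enzymes and transporters of a given transmitter, the touch channel subunits and the fate-determining transcription factors are used by small sets of neurons. A whole larva also holds epidermis, muscle, intestine and germ line. In such a mixture, few expressing nuclei and little polymerase per nucleus cannot be told apart.

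Each gene was read over a window from 500 bp upstream of its annotated 5′ end to 500 bp past its 3′ end. A gene counted as holding a peak where the peak's summit lay in that window. The optimal list is the reproducible set the authors deposited, with 1861 peaks. The pooled list and the list of each replicate hold 30000 entries each, peaks and background together, so that a summit in them is not by itself an enriched site. Signal is the authors' own value for each peak, on a scale that the sources used here do not give. It ranged from 47.4 to 1434.88 in the optimal list, which is the top of the pooled list, and went down to 8.04 in the pooled list. Read depth is unknown from these lists.

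The sequences around 5 of the stronger neuronal summits are given because they show the kinds of places where polymerase was mapped in these genes: promoters (snb-1, rgef-1 and ric-3), an intron (ida-1) and the end of a coding region (osm-6). Each is the WBcel235 sequence of 300 bases on the strand of the gene, with the summit at base 150 or 151. Capitals mark, on either strand, matches to a TATA box (searched as TATAAA), to a GAGA repeat (searched as GAGAGA) and to the end of a typical splice acceptor (searched as TTTCAG). Some matches overlap.
snb-1, chrV:6656599-6656898, minus strand: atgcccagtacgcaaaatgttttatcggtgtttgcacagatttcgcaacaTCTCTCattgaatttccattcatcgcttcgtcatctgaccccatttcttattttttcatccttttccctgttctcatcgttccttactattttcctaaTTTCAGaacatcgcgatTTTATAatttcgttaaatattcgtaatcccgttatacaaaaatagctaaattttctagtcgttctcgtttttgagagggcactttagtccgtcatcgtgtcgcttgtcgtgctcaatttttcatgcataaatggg
rgef-1, chrV:9561846-9562145, minus strand: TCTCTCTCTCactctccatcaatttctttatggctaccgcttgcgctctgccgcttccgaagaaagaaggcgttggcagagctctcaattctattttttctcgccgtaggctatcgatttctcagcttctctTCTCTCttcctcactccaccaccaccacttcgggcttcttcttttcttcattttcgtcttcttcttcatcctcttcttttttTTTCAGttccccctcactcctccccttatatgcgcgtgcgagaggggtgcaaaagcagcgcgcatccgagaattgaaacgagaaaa
ric-3, chrIV:7817934-7818233, plus strand: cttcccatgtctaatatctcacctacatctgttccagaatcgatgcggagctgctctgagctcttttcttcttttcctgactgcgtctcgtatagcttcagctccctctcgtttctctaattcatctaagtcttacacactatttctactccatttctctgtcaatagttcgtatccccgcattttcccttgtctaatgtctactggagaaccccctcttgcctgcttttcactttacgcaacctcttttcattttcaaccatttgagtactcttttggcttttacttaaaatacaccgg
ida-1, chrIII:5758666-5758965, plus strand: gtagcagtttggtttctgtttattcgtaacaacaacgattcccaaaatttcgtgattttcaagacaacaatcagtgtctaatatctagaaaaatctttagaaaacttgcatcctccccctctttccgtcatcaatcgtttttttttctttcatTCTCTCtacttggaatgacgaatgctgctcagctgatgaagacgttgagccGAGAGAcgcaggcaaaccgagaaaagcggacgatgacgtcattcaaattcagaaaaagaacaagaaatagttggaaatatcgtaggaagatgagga
osm-6, chrV:11924678-11924977, minus strand: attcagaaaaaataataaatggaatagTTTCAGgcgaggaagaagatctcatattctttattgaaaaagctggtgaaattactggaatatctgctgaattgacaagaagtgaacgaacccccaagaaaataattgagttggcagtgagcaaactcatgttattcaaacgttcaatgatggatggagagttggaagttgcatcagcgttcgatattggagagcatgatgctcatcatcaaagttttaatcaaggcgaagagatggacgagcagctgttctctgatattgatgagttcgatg

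Matches to these motifs are common. Among 300-base windows around all 1861 optimal summits, 26.9% hold the TATA box match, 35.3% the GAGA match and 38.6% the splice acceptor match on either strand. The snb-1 window has all of the 3 motifs, the rgef-1 window has 4 GAGA matches, some overlapping, and 1 splice acceptor match, and the ric-3 window has none of them. GC content was 37.3% at snb-1 and 48% at rgef-1, with the other 3 windows between them.

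Across the 60 genes, 6 held an optimal AMA-1 summit in the gene window (10%), beside 7.60% of all protein-coding genes. These were pgal-1, ida-1, osm-6, ric-19, snb-1 and unc-40. At the 5′ end, within 500 bp, 4 of 60 held an optimal summit (ric-19, snb-1, pgal-1 and unc-40), beside 4.80% of all protein-coding genes. They are long genes, with a median length of 4566 bp against 2027 bp for all coding genes, and long windows hold more summits. Among genes of 3637 bp and longer, 3 of 36 neuronal genes held an optimal summit (8.33%), against 10% of all coding genes of that length. Among those of 2028 to 3636 bp it was 2 of 18 (11.1%), against 7.41%.

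A pooled summit lay in the window of 34 of the 60 genes (56.7%), beside 44.2% of all protein-coding genes. At the 5′ end it did so in 19 of 60, beside 31.7% of all protein-coding genes. Replicate 1 listed a summit in 36 of the 60 windows, beside 45.1% of all protein-coding genes, and replicate 2 in 43, beside 44%. Both replicates did so in 30, beside 35.3%. Among genes of 3637 bp and longer, 58.3% of the 36 neuronal genes held a pooled summit, against 62.4% of all coding genes of that length, so the excess was not seen there. Among those of 2028 to 3636 bp it was 9 of 18, against 45.5%. Over all 60 windows there were 3.49 pooled summits per 10 kb, against 3.58 over all coding genes. By role, a pooled summit lay in 12 of 13 synaptic release genes and in 12 of 12 neuropeptide genes. In contrast it lay in 5 of 15 transmitter genes, 3 of 13 touch and cilia genes, and 2 of 7 guidance or fate genes. The median lengths were 6087, 3838.5, 4480, 3795 and 7474 bp for the 5 roles in that order. Per 10 kb of window, there were 4.61 pooled summits in synaptic release genes and 8.57 in neuropeptide genes, against 1.18 in transmitter, 1.49 in touch and cilia and 2.11 in guidance or fate genes. The counts are descriptive, because the roles and their members were chosen with results of these data known.

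**Figure D1:**
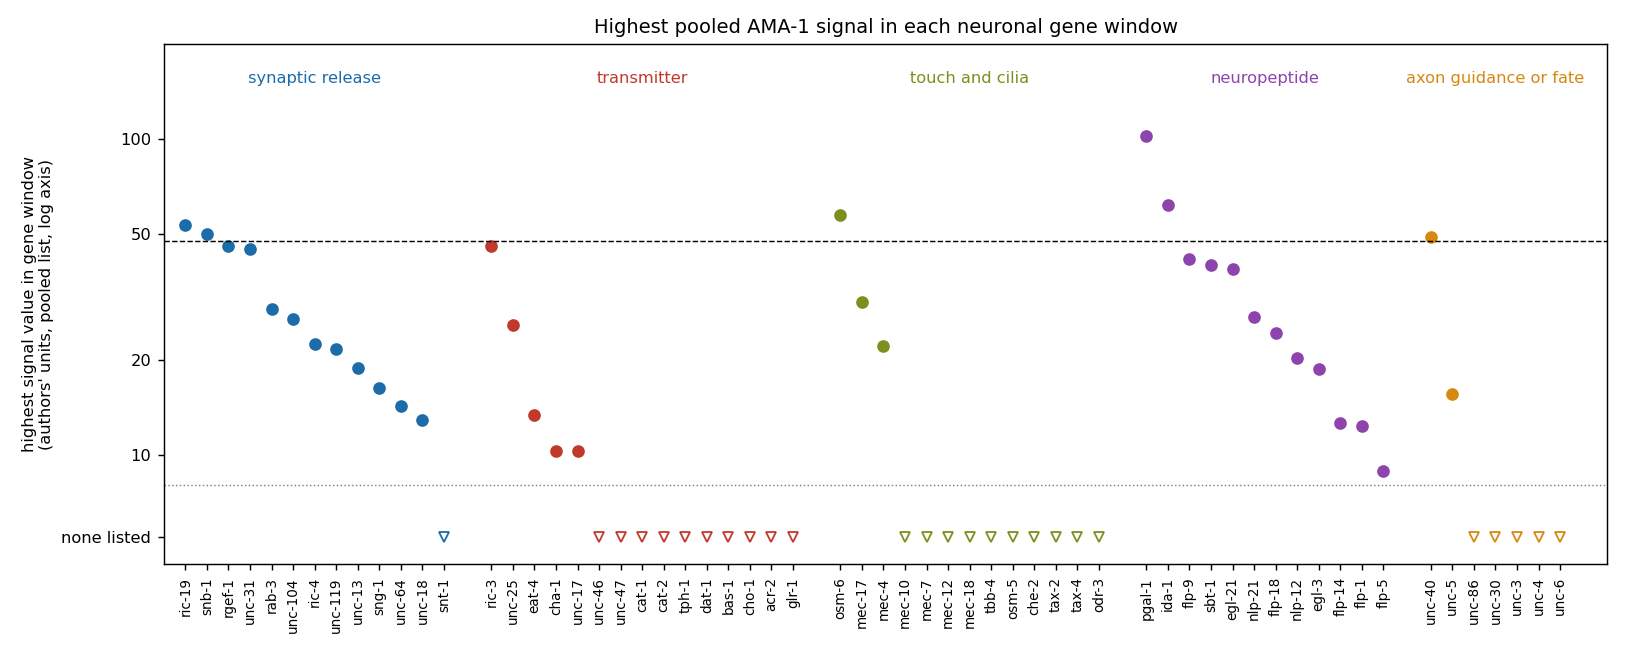
Highest pooled-list signal (authors' units, log axis) in the window of each of the 60 neuronal genes, grouped by role; open triangles mark genes with no pooled summit, the dashed line the lowest optimal signal (47.4) and the dotted line the lowest pooled signal (8.04). Synaptic release and neuropeptide genes have 1 gene without a pooled summit between them (snt-1), whereas 25 of the 26 genes without one belong to the other roles.

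The synaptic release genes encode the vesicle fusion machinery and proteins found in most neurons. ric-19 (chromosome I, 3778089 to 3781690, minus strand) encodes the worm homolog of the islet autoantigen ICA69, which acts in dense-core vesicle maturation. Its summit lay at −196 bp from the 5′ end, that is upstream, with a signal of 53.4 in the optimal list, 37.8 in replicate 1 (rank 1654 of 30000) and 14.1 in replicate 2 (rank 4106). The same summit lay at −232 bp from the 5′ end of the divergent gene pmlr-1, so that the signal belongs to the shared promoter region and cannot be given to either gene.

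snb-1 (chromosome V, 6655562 to 6656501, minus strand) encodes synaptobrevin, the vesicle SNARE of synaptic vesicles. Its promoter summit, shown above, lay at −248 bp with a signal of 50.2. In replicate 1 the signal there was 49.2 (rank 942), and in replicate 2 the strongest overlapping peak had 12.8 (rank 4903) with its summit at −15 bp. No other coding gene's window holds the promoter summit. Further pooled summits of 14.9 and 24.2 lay in untranslated exon sequence, and 1 of 32.3 lay past the 3′ end at 1107 bp from the start. These 3 also lay in the window of syx-18, within 500 bp of its 5′ end.

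rgef-1, a Ras guanine nucleotide exchange factor gene whose promoter is a standard pan-neuronal driver, stood just below the optimal list. Its pooled summit lay at −322 bp with a signal of 45.9 (rank 1971), against the lowest optimal signal of 47.4. The replicates differed there, with 34.9 in replicate 1 (rank 1999) and 6.02 in replicate 2 (rank 17378). unc-31 encodes CAPS, which primes dense-core vesicles. Its strongest pooled summit (44.7, rank 2063) lay 13422 bp into the gene in an intron. This summit lay 30 bp past the 3′ end of ZK897.4, a small nuclear RNA gene annotated inside unc-31. It was the only pooled summit in the 14488 bp of unc-31. Replicate 1 gave it 24.8 (rank 3807) and replicate 2 gave 30.3 (rank 630). At the unc-31 5′ end itself no pooled summit was listed.

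The remaining synaptic release genes had weaker pooled summits, from 12.9 to 28.9, and their places varied. rab-3, the small GTPase of synaptic vesicles, had 28.9 in an intron 3981 bp from its 5′ end, with 23.5 in replicate 1 and 4.44 in replicate 2. unc-104, the kinesin that carries vesicle precursors, had 26.9 past its 3′ end, inside the convergent gene sqv-7, with 9.28 in replicate 1 and 16.7 in replicate 2. The order of the replicates was thus opposite in these genes. ric-4, which encodes SNAP-25, had 22.4 in an intron and unc-119, a lipid-binding trafficking gene, 21.7 in an intron. unc-13, the priming factor, had 16 pooled summits over a gene of 31332 bp, none above 18.8. unc-64 (syntaxin) had 8 of at most 14.3, sng-1 (synaptogyrin) had 2 of at most 16.3 and unc-18 had 1 of 12.9. The sng-1 summit of 16.3 lay 412 bp past its 3′ end, inside the gene ttr-59, and the summit within sng-1 had 10.8. snt-1, which encodes the calcium sensor synaptotagmin, had no pooled summit and only values near the floor of each replicate's list, 4.86 in replicate 1 and 4.77 in replicate 2.

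The 2 highest pooled signals among the 60 genes were in neuropeptide genes. pgal-1 (chromosome I, 4906839 to 4911829, plus strand) encodes a lyase that takes part in amidating peptides. Its highest summit (102, rank 318 in the optimal list) lay in a coding exon at −200 bp from the 3′ end. The convergent gene F21F3.6 ends close by, and the summit lay 176 bp past its 3′ end. Replicate 1 gave 87.9 (rank 254) and replicate 2 gave 32.8 (rank 495). This was the highest signal among the 60 genes in each replicate. A further optimal summit lay 72 bp after the pgal-1 5′ end in a coding exon (53.3) and was in no other coding gene's window, with 34.4 in replicate 1 and 20 in replicate 2. Among the 60 genes, pgal-1 was the one with 2 optimal summits.

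ida-1 (chromosome III, 5755539 to 5765816, plus strand) encodes the homolog of IA-2, a membrane protein of dense-core vesicles. It carried pooled summits along its whole length, 16 in all, or 14.2 per 10 kb of window. Apart from the summit of 61.7 in an intron at 3277 bp, which is in the optimal list, they included 33.3 at 29 bp, 44.4 at 2185 bp, 34.8 at 4490 bp and 34.2 at 10511 bp, past the 3′ end. Replicate 1 listed 14 summits and replicate 2 listed 15 over the same window. At the 3277 bp summit the replicates gave 49.4 (rank 929) and 10.7 (rank 7038). The highest replicate 2 signal in ida-1 was instead 23.5, at −109 bp, inside the ncRNA gene B0244.14 of the opposite strand. No other coding gene's window holds the strongest summit.

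In flp-9, sbt-1 and egl-21 the highest summit lay at the 5′ end. flp-9, which encodes FMRFamide-like peptides, reached 41.7 at 11 bp after its 5′ end. sbt-1, the homolog of the 7B2 chaperone of prohormone convertase, reached 39.9 at 14 bp. egl-21, the carboxypeptidase E gene, reached 38.8 in its first 500 bp. In replicate 1 these 3 peaks had 36.2, 32.9 and 35 in that order (ranks 1806, 2225 and 1976). In replicate 2 they had 6.28, 6.82 and 10.6 (ranks 16475, 14645 and 7185), so all of these peaks ranked higher in replicate 1. egl-3, the prohormone convertase PC2 gene, had 6 pooled summits of at most 18.7.

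The remaining peptide genes ranged from 8.89 to 27.4. nlp-21 had 27.4 at 51 bp after its 5′ end, with 7.94 in replicate 2 and no overlapping peak in replicate 1. flp-18 had 24.4 in an intron, nlp-12 had 20.3 at −216 bp, inside the gene emr-1, and flp-14 and flp-1 had 12.6 and 12.3. The flp-1 summit lay inside the gene daf-10. flp-5 had 8.89. For flp-5, flp-14 and flp-18 replicate 1 listed no summit at all.

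**Figure D2:**
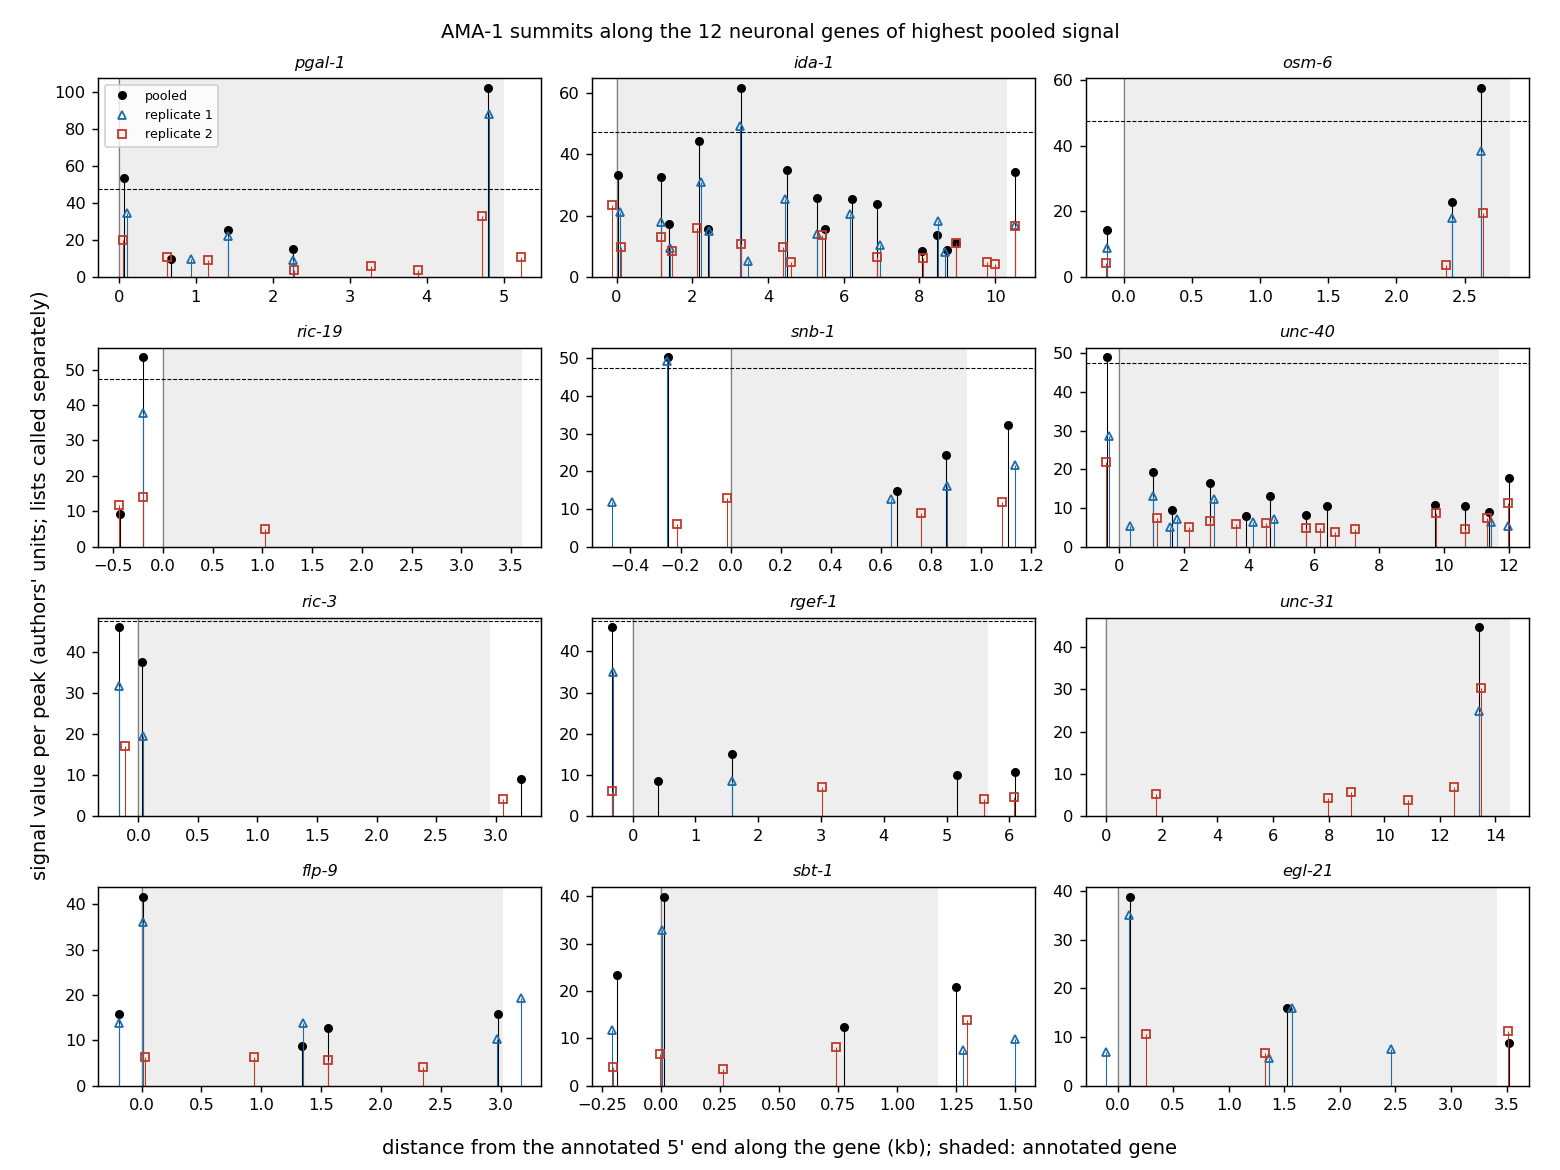
Summits along the 12 neuronal genes of highest pooled signal: x, distance from the annotated 5′ end in kb, shaded over the annotated gene; y, signal per peak in the authors' units for the pooled list (filled circles), replicate 1 (triangles) and replicate 2 (squares), which were called separately; dashed line, lowest optimal signal (47.4), where in range. ida-1 and unc-40 carry summits along the gene, ric-19, ric-3, rgef-1, flp-9 and egl-21 have their highest pooled summit at the 5′ end, and pgal-1, osm-6 and unc-31 near the 3′ end.

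Transmitter genes had no optimal summit in any of 15 windows, beside 7.60% of all protein-coding genes. ric-3, a chaperone for nicotinic acetylcholine receptors, came closest, with a pooled summit of 46 (rank 1966) at −167 bp. The replicates gave 31.6 (rank 2403) and 17 (rank 2664), at similar ranks. unc-25, the glutamate decarboxylase that makes GABA, had 25.8 in an intron 355 bp after its 5′ end, with 12.3 in replicate 1 and 9.59 in replicate 2. eat-4, the vesicular glutamate transporter gene, had 13.4 in a coding exon 39 bp past the 3′ end of ZK512.7. unc-17 and cha-1, the vesicular acetylcholine transporter and choline acetyltransferase genes, share a locus and their 5′ end region. They share the same summit of 10.3, listed once in the data and counted for each gene.

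The other 10 transmitter genes had no pooled summit: unc-47, unc-46, cat-1, cat-2, dat-1, tph-1, bas-1, cho-1, acr-2 and glr-1. Of these, unc-46, cat-2, tph-1 and acr-2 had none in the replicate lists either. cat-2 (tyrosine hydroxylase), tph-1 (tryptophan hydroxylase) and dat-1 (dopamine transporter) mark the few dopamine and serotonin neurons of the worm. dat-1 had 1 summit of 13.3 in replicate 1, 68 bp past the 3′ end of saeg-2. unc-47, the vesicular GABA transporter gene, had 1 summit of 23.4 in replicate 2 (rank 1251) that lay past its 3′ end and 172 bp past that of the convergent gene mua-3.

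Touch and cilia genes had the lowest share with a pooled summit, and in all 3 that held one the strongest summit also lay in the window of another coding gene. osm-6 (chromosome V, 11924621 to 11927446, minus strand) encodes the intraflagellar transport protein IFT52. Its optimal summit (57.6, rank 1225) lay in a coding exon at −207 bp from the 3′ end, and 175 bp past the 3′ end of the convergent gene R31.2. The replicates gave 38.3 (rank 1599) and 19.4 (rank 1960), with summits at most 16 bp apart from the pooled one. mec-17, the α-tubulin acetyltransferase gene of touch neurons, had 30.5 near its 3′ end, 176 bp past the 3′ end of arf-5. mec-4, a channel subunit of the touch receptor, had 22.1 at −176 bp, 164 bp past the 3′ end of cas-1.

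No pooled summit was listed for mec-7, mec-10, mec-12, mec-18, tbb-4, osm-5, che-2, tax-2, tax-4 or odr-3. The last 6 of these, which encode a ciliary β-tubulin, 2 intraflagellar transport proteins, the subunits of the cyclic nucleotide-gated channel and a G protein α subunit, had none in either replicate list. The whole list of neuronal genes had 11 such genes with no summit in the pooled list or in either replicate (unc-46, cat-2, tph-1, acr-2, unc-4 and these 6), beside 45.9% of all protein-coding genes.

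The promoters of several ciliary genes carry the X-box, the site of the RFX factor DAF-19 that switches on ciliary genes. It was searched in the 1000 bp upstream to 50 bp downstream of every coding 5′ end, on both strands, and 3.38% of the 19973 promoters held a match. Among the 60 neuronal genes 4 held one, all of them touch and cilia genes, and their sites are shown because 3 of the genes have no listed summit. Sites are WBcel235 sequence, read 5′ to 3′ on the strand named. The first base is the one farthest upstream along the gene strand, so for a site on the other strand it is the last letter printed.
osm-6 (chromosome V), first base at −60 bp, gene strand: gttaccatagtaac
osm-5 (chromosome X), first base at −100 bp, gene strand: gttactatggcaac
che-2 (chromosome X), upstream, gene strand: gttgtcatggtgac
tbb-4 (chromosome X), first base at −233 bp, other strand: gctgccatgacaac
The first 3 also match on the other strand, because the element is nearly palindromic. osm-5, che-2 and tbb-4 had no summit in any list. At osm-6 a pooled summit of 14.4 lay at −122 bp, in the window of aman-2 as well, with 8.91 in replicate 1 and 4.41 in replicate 2. The site of the COE factor UNC-3, which acts in cholinergic motor neurons, was searched only as a fixed palindrome with any base allowed at its centre. This strict form was found in 0.37% of all promoters on either strand and in 0 of the 60. Sites that differ from it elsewhere were not searched, so the count of 0 does not show that these genes lack UNC-3 sites. A match is a description of letters in this window and not a bound site.

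Guidance and fate genes were mostly without a pooled summit. unc-40 (chromosome I, 5679837 to 5691503, minus strand) encodes the netrin receptor DCC. Its optimal summit (48.9, rank 1751) lay at −379 bp, and at −382 bp from the start of npp-7, a divergent nuclear pore gene. The replicates gave 28.5 (rank 2936) and 21.9 (rank 1481). A further 11 pooled summits, none above 19.3, lay along unc-40 or past its 3′ end. unc-5, the other netrin receptor, had 5 pooled summits over 32675 bp, none above 15.6. unc-6, the netrin gene, and the transcription factor genes unc-86, unc-3, unc-30 and unc-4 had no pooled summit. In the replicate lists unc-6 reached 10.7 in replicate 1, unc-86 6.65, unc-3 5.18 and unc-30 6.25, and replicate 2 listed a summit only for unc-30 (4.19).

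Neighbouring genes touched many of these values. The strongest pooled summit also lay in the window of another coding gene in 13 of the 34 neuronal genes that had one. That count was not made over all coding genes, so it cannot be read as particular to neuronal genes. Counted only by pooled summits that lie in the window of no other coding gene, a rule chosen after the values were seen, 26 of 60 genes remained (43.3%), beside 29.8% of all protein-coding genes. Of the genes with any pooled summit, that is 26 of 34, beside 5954 of 8831 over all coding genes. By role the 26 genes were 11 of 13 for synaptic release, 10 of 12 for neuropeptides, 2 of 15 for transmitters, 1 of 13 for touch and cilia and 2 of 7 for guidance or fate. The share of 32-base words in the gene window that occur once in the genome had a median of 99.8% and was at least 95% in 54 of the 60, with the lowest at ric-4 (81.9%). Its part in which genes had a listed summit was not tested.

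**Figure D3:**
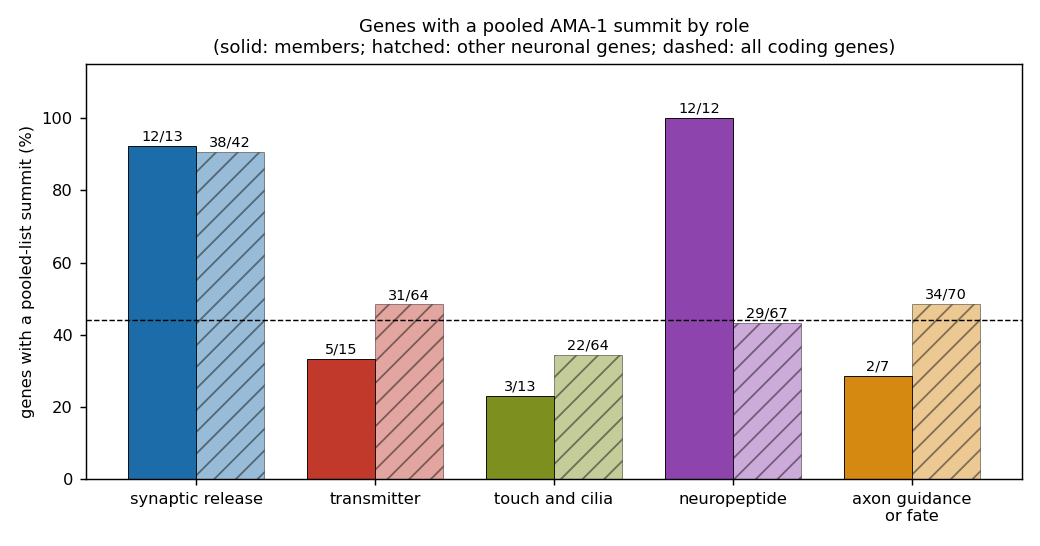
Percentage of genes with a pooled-list summit from 500 bp upstream to 500 bp past the 3′ end, by role, for the 60 neuronal genes (solid bars) and 307 other neuronal genes (hatched bars), with counts above the bars and the share of all coding genes (44.2%) as a dashed line. Synaptic release stands at 12 of 13 and 38 of 42, and the neuropeptide bars differ, with 12 of 12 and 29 of 67.

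The position of summits within the genes was read over all pairs of a gene and a summit in its window. In the pooled list 48.3% of the 145 neuronal pairs lay in introns more than 500 bp from the 5′ end, against 32% of the pairs of all coding genes. At the 5′ end it was 17.9% against 28.3%, and past the 3′ end 11.7% against 17.1%. In exons of the gene body it was 22.1% against 22.6%. The pairs were not spread evenly over the genes, as unc-13 and ida-1 gave 16 each and unc-40 gave 12 of the 145. These shares therefore weigh a few genes most and do not describe a typical neuronal gene. Replicate 1 put 24.8% of its 121 neuronal pairs at 5′ ends and replicate 2 put 16.5% of 194 there, and the shares over all coding genes were 31.2% and 22.5%. Neuronal genes are longer than most, which by itself leaves more of a window to gene bodies, and the part of length in these shares was not tested.

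Taking the 1861 strongest peaks of each replicate, 6 neuronal genes held a summit in replicate 1 (snb-1, ric-19, osm-6, ida-1, flp-9 and pgal-1), beside 7.90% of all protein-coding genes. In replicate 2 it was 7 (unc-31, unc-47, mec-4, mec-17, ida-1, pgal-1 and unc-40), beside 6.44%. ida-1 and pgal-1 were in both, and 11 genes were in at least 1 of them. Within 500 bp of the 5′ end it was 3 genes in each replicate, beside 5.24% of all protein-coding genes in replicate 1 and 2.94% in replicate 2. Of the 7 in replicate 2, the strongest summits of unc-47, mec-17 and pgal-1 lay 172, 340 and 251 bp from the 3′ end of a neighbouring gene, mua-3, arf-5 and F21F3.6 in that order. That of unc-31 lay 83 bp past the transcription unit annotated inside it. That of ida-1 lay inside B0244.14, and that of unc-40 at −374 bp from the npp-7 5′ end. In mec-4 the replicate 2 signal of 25 lay in a coding exon 3146 bp from the 5′ end, and the closest replicate 1 summit, of signal 5.0, lay at 3454 bp. At the strongest pooled peak of each gene, 25 of 34 genes had an overlapping peak in both replicate lists, beside 5448 of 8831 over all coding genes. Replicate 1 gave the better rank in 15 of these 25 (60%), and over all coding genes it did so in 59.5% of 5448. Among the neuronal peaks at 5′ ends it was 8 of 11, and elsewhere 7 of 14. This split by position was not counted over all coding genes, so it cannot be read as particular to neuronal genes.

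**Figure D4:**
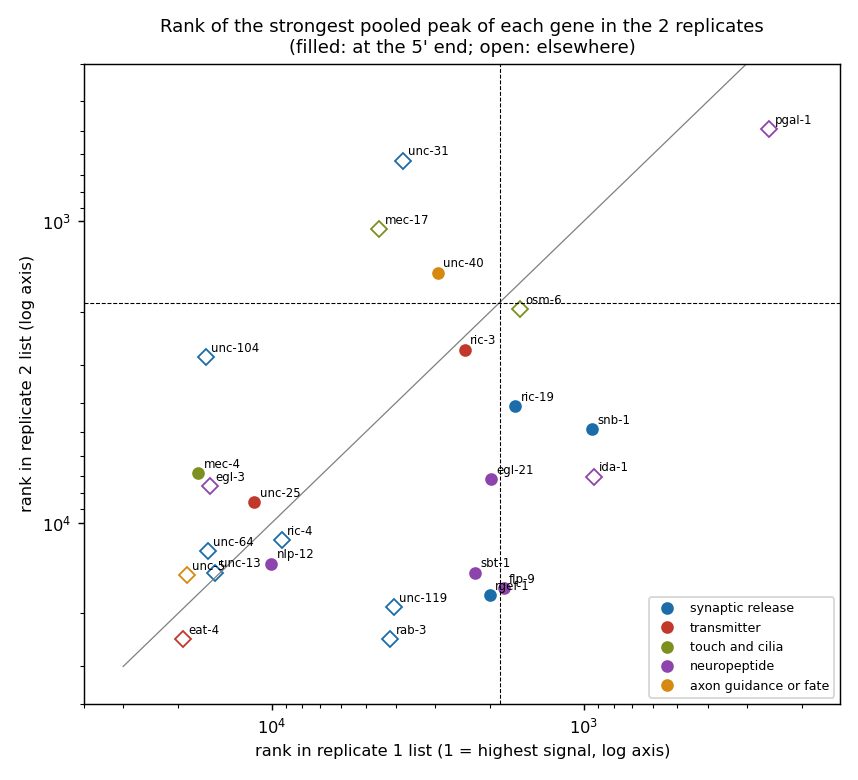
Rank of the strongest pooled peak of 25 neuronal genes in the list of replicate 1 (x) and replicate 2 (y), both on log axes with the highest signal at the top right; filled points lie at the 5′ end, open ones elsewhere, dashed lines mark rank 1861 and the grey line equal ranks. pgal-1 is near the top of both lists, unc-31, mec-17 and unc-40 rank better in replicate 2, and snb-1, ida-1, rgef-1, flp-9 and sbt-1 rank better in replicate 1.

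Other genes of the same roles were read in the same way. Of 315 further neuronal gene names, 307 matched a gene. An optimal summit lay in the window of 18 of them (5.86%), beside the 7.60% of all coding genes. By role these were 5 of 42 synaptic release, 3 of 64 transmitter, 3 of 64 touch and cilia, 5 of 67 neuropeptide and 2 of 70 guidance or fate genes. In the pooled list 38 of 42 synaptic release genes held a summit (90.5%), with 4.28 per 10 kb of window. All coding genes stood at 44.2% and 3.58 per 10 kb. A pooled summit lay in 31 of 64 transmitter genes (48.4%) and 22 of 64 touch and cilia genes (34.4%). It lay in 29 of 67 neuropeptide genes (43.3%) and 34 of 70 guidance or fate genes (48.6%). Per 10 kb these roles had 1.75, 1.23, 3.82 and 3.19 in that order. The further synaptic release genes are long, with a median of 8875 bp, and the further neuropeptide genes short, with 1489 bp. Of all coding genes of 3637 bp and longer, 62.4% held a pooled summit.

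Several of the highest optimal signals among these further genes lay at other transcription units. The highest, 136 in an intron of glr-2, an AMPA-type glutamate receptor gene, lay 15 bp past the 3′ end of sls-2.16, a gene of the SL2 spliced leader RNA. That of glr-4 (102), a receptor gene of the same family, lay in an intron 72 bp after the 5′ end of srlf-1. That of odr-1 (91.7), a guanylyl cyclase gene, lay 42 bp past the 3′ end of cah-4. That of nlp-40 (86) lay past its 3′ end, in the window of rcor-1, and that of nlp-15 (76.2) lay past its 3′ end, at −97 bp from the 5′ end of smu-1. For eipr-1 (68.9) it lay past the 3′ end of eipr-1, upstream of vps-28, at −143 bp from the vps-28 5′ end. lin-7 (123), a synaptic scaffold gene, had its summit at −303 bp, and at −29 bp from elof-1's own start. egl-30 (87.6), the Gq α subunit gene, had it at −223 bp, at the 3′ end of rpl-27. unc-16 (107), a JIP3 cargo adaptor gene, had it 5 bp after the 5′ end, 366 bp past the 3′ end of ZK1098.12. That summit also lay inside the ncRNA gene ZK1098.13 of the opposite strand. In unc-108 (126), the RAB-2 gene, the summit lay in an intron, in unc-14 (84.6) at −107 bp and in tom-1 (76.9), the tomosyn gene, at −311 bp, and no other annotated gene's window held these 3. In all, 12 of the 18 had the summit in another coding gene's window as well. That count was not made over all coding genes, so it cannot be read as particular to neuronal genes. Counted by optimal summits in no other annotated gene's window, 4 of the 307 remained (1.30%), beside 2.70% of all coding genes.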

How the data were processed

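The authors deposited narrowPeak lists on ce11. Per the file descriptions deposited with them, there is 1 list per replicate, 1 from both replicates pooled, and an optimal list thresholded by the irreproducible discovery rate (IDR). The control experiment was not analysed here. The signal in column 7 was given by the authors for each peak. No source used here gives its scale, or names the aligner, the caller or the threshold. The lists on the ce10 build were not used here. Replicate lists come from separate peak calls, so their values stand side by side with no SD.

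Summits (column 10) were matched to Ensembl release 115 genes on WBcel235, which is ce11, and sequences were read from the RefSeq WBcel235 genome; every peak end lay within its chromosome. Windows reached 500 bp beyond each gene. Length classes are quartiles of all coding genes. Scripts used Python 3.11.15, pandas 2.3.3, numpy 2.4.6 and matplotlib 3.10.9, and the window count was tested on simulated summits. Many worm genes are trans-spliced, so an annotated 5′ end may lie inside the primary transcript.

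With 1 group there is no test, and counts are read beside the same count over all 19973 coding genes. The genes and lists were chosen with earlier results of these data known. Named are the genes with an optimal summit, those among the strongest peaks of either replicate, the 5 others of highest pooled signal, and of the further neuronal genes the 12 of highest optimal signal. Other genes were named after their values were seen. The alternatives changed the flank, the peak number, the overlap rule and the replicate. The sequence at 1 summit is not reported here.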

Additional observations from a re-analysis of the deposited data

How the results depend on the processing

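The count of 6 neuronal genes with an optimal summit lay at 5 with 250 bp flanks and at 6 with 1000 bp flanks or any overlap of the peak. From 1 replicate alone it was 6 to 7, that of the further neuronal genes 18 to 20, against 18, and that at 5′ ends 3 in each replicate, against 4. It fell to 3 in the annotated gene without flanks (9 for the further genes), or 5% beside 3.23% of all coding genes. With summits in no other gene's window it was 3 (snb-1, ida-1 and pgal-1, with 4 for the further genes), or 5% beside 2.70%. With the 930 peaks of highest signal it was 1 (pgal-1), or 1.67% beside 4.12%, and 0 at 5′ ends beside 2.43%, so the neuronal share was then below that of all coding genes. With 2 times as many pooled peaks, chosen after seeing the data, it was 12, or 20% beside 13.5% of all coding genes, and 28 for the further genes. The share of the further genes was below that of all coding genes in these settings. It was 2.93% without flanks, 1.30% with summits in no other gene's window, 3.91% with 930 peaks (beside 4.12%) and 9.12% with 2 times as many pooled peaks. From replicate 2 alone it was 6.51%, beside 6.44%. Fewer or more peaks and shorter windows change these counts by construction. The median over the 34 genes of the highest pooled signal was 25.1, beside 23.3 over the 8831 coding genes with a pooled summit. With other flanks the neuronal median was 22.2 to 24.6. Unknown read depth limits every count of genes without a summit, which says only that none was listed. No paired analysis was possible because the series has 1 group.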

Other observations

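Lists for other tissues give a scale for these counts in the same whole animals; no test was made, and fewer nuclei and less polymerase per nucleus cannot be told apart. Over all coding genes, 7.60% held an optimal summit and 44.2% a pooled one. Among 48 body wall muscle genes it was 7 (14.6%) and 42 (87.5%), and among 43 epidermal genes 9 (20.9%) and 40 (93%). Among 38 intestinal genes it was 4 (10.5%) and 21 (55.3%), and among 45 germline genes 2 (4.44%) and 18 (40%). Median lengths were 4223, 2901, 1727 and 2604 bp in that order, against 2027 bp for all coding genes. The part of length was not tested. The epidermal genes differed most between replicates, with 2 genes (4.65%) among the strongest peaks of replicate 1 and 19 (44.2%) among those of replicate 2. The 60 neuronal genes had 6 and 7, and over all coding genes the shares were 7.90% and 6.44%. Pooled summits per 10 kb of window were 7.13 in epidermal, 4.80 in intestinal, 4.45 in muscle and 2.45 in germline genes. It was 3.49 in the neuronal genes and 3.58 over all coding genes. The 12 neuropeptide genes were at 8.57, with 16 of their 51 summits in ida-1, and the 67 further neuropeptide genes were at 3.82. The 15 transmitter genes were at 1.18 and the 64 further ones at 1.75.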
